A study of Mus musculus with 9 samples.

Results

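Hsd3b1 and Hsd3b6 are a pair of mouse 3β-hydroxysteroid dehydrogenase genes, taken here as the 2 rows of that name in a table of 19991 genes counted in 9 testis libraries. Hsd3b6 was picked because its counts were lower after CW069 and not after AZ82, so its differences between the groups are given as a description, with no test. Hsd3b1 was taken as its paralog, not for its own values, and it is tested within the fit over all genes. The study injected 8-week-old ICR mice, an outbred stock, with PBS (Control), with AZ82 at 1 µM or with CW069 at 50 µM, and sequenced testis RNA from 3 samples of each group. Both compounds are known as inhibitors of KIFC1, a motor protein of the spindle. They were given at different concentrations, and the labels give no volume, route, time after injection or time of day. Control carried PBS alone, with no compound vehicle named. The samples are whole testis, and nothing says that the 3 samples of a group came from separate animals, so any p-value here speaks of the spread among these libraries and not surely among mice; part of that spread may be technical.

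As background, 3β-hydroxysteroid dehydrogenases oxidise the 3β-hydroxyl group of pregnenolone and related steroids and shift the neighbouring double bond, which turns them into progesterone, androstenedione and other hormonally active precursors. In the testis this step belongs to the Leydig cells, between the side-chain cleavage of cholesterol by Cyp11a1 and the later steps by Cyp17a1 and Hsd17b3. In mice, Hsd3b1 is the form known from gonads and adrenal at all ages, and Hsd3b6 is known as the form that appears in adult Leydig cells and in the adrenal zona glomerulosa.

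The coding sequences are shown first, because reads of such close paralogs can be misplaced between them. In the GENCODE M21 transcripts (Hsd3b1-202 and Hsd3b6-201, lengths 1855 and 1802 bases), both genes code for 373 codons over 1119 bases. Aligned without gaps, the coding sequences differed at 112 bases and were 90.0% identical, and 271 of the 373 codons were the same. The differences were spread over the codon positions, with 40 at the first, 23 at the second and 49 at the third. The 60-base window with the most differences, bases 94 to 153 of the coding sequence, held 15 of them, which are in capitals here.
Hsd3b1: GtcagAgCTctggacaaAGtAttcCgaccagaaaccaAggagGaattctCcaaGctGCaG
Hsd3b6: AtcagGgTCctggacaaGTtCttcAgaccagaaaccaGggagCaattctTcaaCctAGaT
At the other extreme, bases 250 to 309 were the same in both genes, with 0 of 60 bases different, so a fragment lying wholly within them could come from either.
Hsd3b1 and Hsd3b6: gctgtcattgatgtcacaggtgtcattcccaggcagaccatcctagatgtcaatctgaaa

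**Figure D1:**
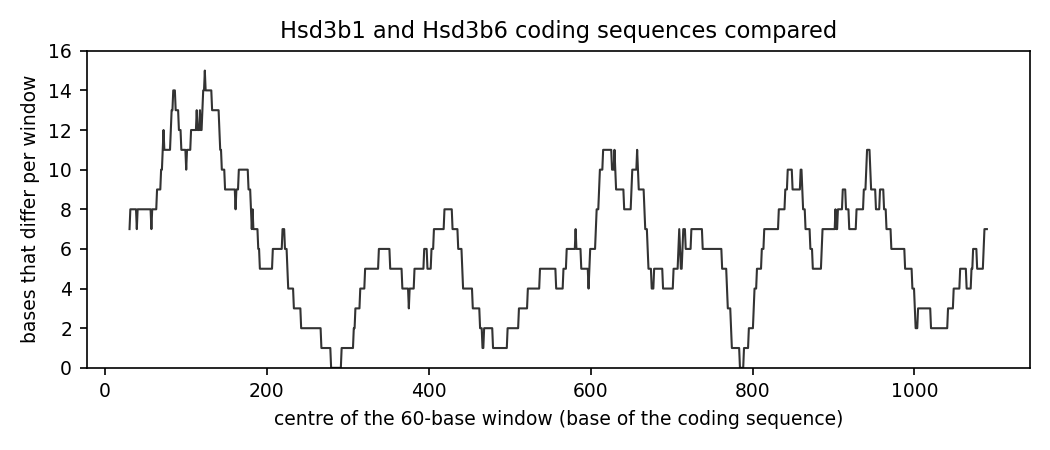
Number of bases that differ between the Hsd3b1 and Hsd3b6 coding sequences in each 60-base window (y axis), against the centre of the window in bases of the coding sequence (x axis). The line reaches 15 near the 5′ end and touches 0 at windows that are identical in both genes; the longest identical run was 72 bases.

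Stretches of read length were then compared between all transcripts. Of the 1753 stretches of 50 bases in the Hsd3b6 transcript, 38 (2.17%) also occurred in Hsd3b1, and of the 1806 in Hsd3b1, 38 (2.10%) occurred in Hsd3b6. With stretches of 100 or 150 bases, 0 were shared between the pair in either direction. Hsd3b6 shared more with the rest of the family. Of its 100-base stretches, 56 of 1703 (3.29%) occurred in Hsd3b2 or Hsd3b3, against 0 of 1756 for Hsd3b1. Exons of neither gene overlapped exons of another gene in that annotation. The read length of these libraries is not given in the sources used here, and ICR mice can differ from the reference sequence.

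The regions just upstream of the 2 genes had little in common, and they are shown beside the coding sequences, which are so alike. They are the 250 bases before each start site, from RefSeq on GRCm38.p6, minus strand, at chr3:98859795-98860044 for Hsd3b1 and chr3:98814444-98814693 for Hsd3b6, printed 5′ to 3′ along the gene. That build is older than the GRCm39 named for the counts. The capitals mark GATAA, the only spelling of a GATA factor site that was searched. The Hsd3b1 window also holds gatag, another spelling, which was not searched and stays in lower case.
Hsd3b1: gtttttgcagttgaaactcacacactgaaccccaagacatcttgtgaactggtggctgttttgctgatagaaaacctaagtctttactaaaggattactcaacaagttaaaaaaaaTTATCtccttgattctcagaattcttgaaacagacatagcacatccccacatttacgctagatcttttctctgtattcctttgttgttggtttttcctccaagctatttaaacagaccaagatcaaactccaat
Hsd3b6: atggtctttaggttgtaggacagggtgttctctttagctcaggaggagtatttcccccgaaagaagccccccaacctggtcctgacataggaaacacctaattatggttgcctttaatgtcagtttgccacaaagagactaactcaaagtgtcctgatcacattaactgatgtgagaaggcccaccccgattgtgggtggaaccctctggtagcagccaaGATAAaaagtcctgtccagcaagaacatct
The longest run shared by both windows was 7 bases. On both strands, 8 motifs were searched, and the 2 matches found did not overlap another motif. GATAA lay at bases 134 to 130 before the start of Hsd3b1, on the opposite strand, and at bases 30 to 26 before the start of Hsd3b6, on the strand of the gene. It occurs in 22.6% of the 32851 upstream windows of that length in the table. The NR5A1 half-site spellings AAGGTCA and AAGGCCA (4.08% and 5.24% of windows), the E-box CACGTG (6.02%), the D-box spellings TTATGTAA and TTACGTAA (0.819% and 0.113%), the cAMP response element TGACGTCA (1.55%) and the TATA box TATAAA (12.4%) had no match in either window. These are matches of letters, and nothing on binding was measured.

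The libraries held 13856070 to 18102593 counts each. After genes with low counts were removed, 15834 genes were tested, and both Hsd3b1 and Hsd3b6 were among them. Levels are given as CPM, the counts of a gene relative to the TMM-scaled size of its library. The 7 Leydig markers were all tested, and their summed level was 1545 to 1678 CPM in Control. Of 4 defining adrenal cortex markers, values of 2 were used here, Cyp21a1 and Akr1b7. Their sum was 7.45 to 15.6 CPM in Control, 2.89 to 9.35 CPM in the AZ82 libraries and 2.39 to 3.35 CPM in the CW069 libraries. Cyp21a1, the steroid 21-hydroxylase, made up most of it, and its part in the results below was not tested. The summed late spermatid markers stood apart in Control 3, at 3124 CPM against 8454 and 9247 CPM in the other Control libraries. Without Control 3, the log2 fold change of Hsd3b6 for CW069 against Control was -1.004, and that of Hsd3b1 was -0.22 for CW069 and -0.34 for AZ82.

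Hsd3b1 was the more abundant gene of the pair in every library. Its level was 226, 199 and 230 CPM in Control 1 to 3, 131, 207 and 168 CPM in AZ82 1 to 3, and 183, 191 and 172 CPM in CW069 1 to 3. The AZ82 libraries were spread widely, with AZ82 2 inside the Control range and AZ82 1 the lowest of all 9. All 3 CW069 libraries lay below all 3 Control libraries, by a small margin. The group means were 218 ± 17.0, 169 ± 38.4 and 182 ± 9.35 CPM (SD, n = 3 each).

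Hsd3b6 followed another pattern. Its level was 39.1, 60.7 and 63.3 CPM in Control 1 to 3, 55.3, 61.5 and 49.7 CPM in AZ82 1 to 3, and 25.0, 25.9 and 23.9 CPM in CW069 1 to 3. The 3 CW069 libraries were the lowest of the 9 and lay close together and the AZ82 libraries lay within the Control range. Control 1 was the lowest of the other 6. The group means were 54.3 ± 13.3, 55.5 ± 5.89 and 24.9 ± 1.04 CPM (SD, n = 3 each). In counts, Hsd3b6 had 566, 946 and 951 in Control, 760, 861 and 689 after AZ82, and 365, 379 and 420 after CW069.

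**Figure D2:**
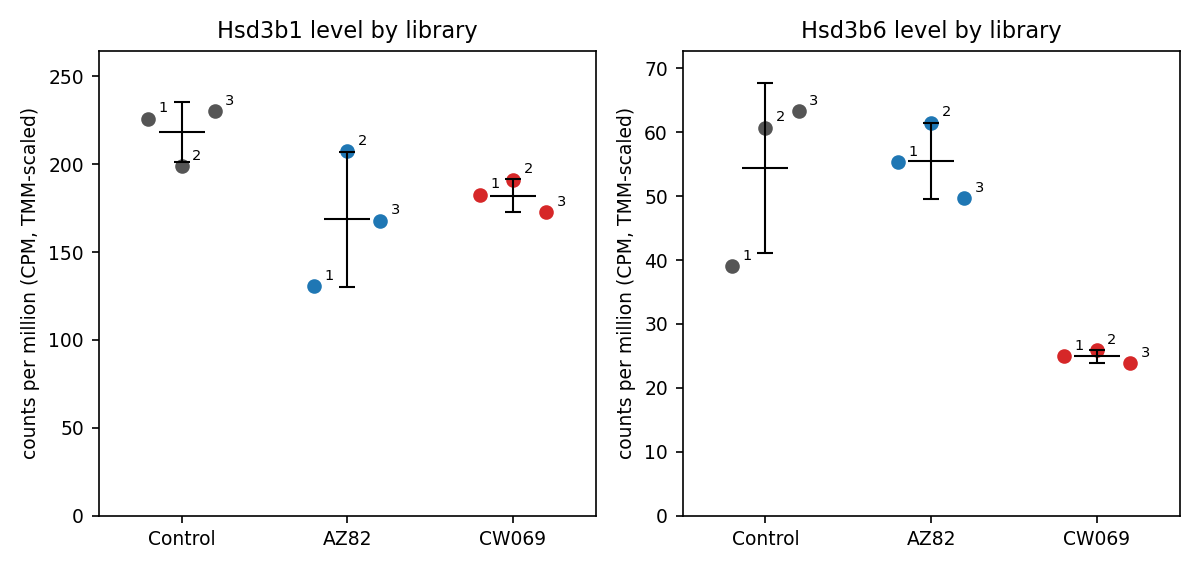
Level of Hsd3b1 (left) and Hsd3b6 (right) in CPM (y axis, from 0) in each library of the 3 groups (x axis); points are libraries with their replicate number, bars the mean and SD of 3. For Hsd3b6 the CW069 libraries sit at 23.9 to 25.9 CPM, below all others, while for Hsd3b1 AZ82 1 is the lowest library at 131 CPM.

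Per kilobase of exon, which allows the 2 genes to be compared, Hsd3b1 was at 118 ± 9.15 and Hsd3b6 at 30.2 ± 7.38 CPM per kb in Control. The ratio of Hsd3b1 to Hsd3b6 on this scale was 5.62, 3.18 and 3.53 in Control 1 to 3. After AZ82 it was 2.29, 3.28 and 3.28, and after CW069 7.10, 7.16 and 7.02. The ratio was thus highest in the 3 CW069 libraries and lowest in AZ82 1.

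In the comparison of CW069 with Control, the level of Hsd3b6 in the fit was 45.8% of Control, a log2 fold change of -1.13 ± 0.16 (SE; 95% interval -1.48 to -0.77). Because Hsd3b6 was chosen on this contrast, the interval describes the libraries and tests nothing. Hsd3b1 had a log2 fold change of -0.26 ± 0.14 (SE; 95% interval -0.57 to 0.04; edgeR adjusted p = 0.698), so no change beyond the spread between libraries was detected. The interval leaves room for a level well below Control. In this comparison edgeR called 0% of the 15834 genes in either direction at an adjusted p under 0.05 (unadjusted p under 0.05 in 574 higher and 588 lower genes; 28 genes called by DESeq2 and 0 by limma-voom). Every CW069 library lay below every Control library in 7.24% of genes tested and above it in 6.13%, and both Hsd3b1 and Hsd3b6 were of the first kind. For Hsd3b6 the rule had used this. In whole-testis RNA, fewer Leydig cells and less RNA per Leydig cell cannot be told apart.

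In the comparison of AZ82 with Control, the levels of Hsd3b6 overlapped and the log2 fold change was 0.03 ± 0.15 (SE; 95% interval -0.31 to 0.37), again as a description. Without Control 1, its lowest Control library, the value was -0.16. Hsd3b1 had a log2 fold change of -0.37 ± 0.14 (SE; 95% interval -0.68 to -0.07), which did not pass once adjusted over all genes (edgeR adjusted p = 0.554; unadjusted p = 0.0216). This value rested in part on AZ82 1: it was -0.22 without that library and -0.55 without AZ82 2. edgeR called 0% of genes here too (unadjusted p under 0.05 in 640 higher and 759 lower genes; 6 genes called by DESeq2 and 1 by limma-voom). The comparisons of AZ82 and of CW069 with Control share the 3 Control libraries.

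CW069 and AZ82 were also set against each other, with the limit that their concentrations differ, so the values stand side by side. The level of Hsd3b6 after CW069 was 44.9% of that after AZ82 (log2 fold change -1.16 ± 0.16, SE; 95% interval -1.51 to -0.80), and no CW069 library reached the lowest AZ82 library. That of Hsd3b1 was 0.11 ± 0.14 on the log2 scale (95% interval -0.19 to 0.42; edgeR adjusted p = 0.999), and it was -0.04 without AZ82 1. The groups overlapped for Hsd3b1. edgeR called 0% of genes (unadjusted p under 0.05 in 409 higher and 378 lower genes; 13 genes called by DESeq2 and 0 by limma-voom), and CW069 lay below AZ82 without overlap in 5.8% of genes and above it in 5.52%.

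The share of the pair's counts that belonged to Hsd3b6 does not depend on library size. It was 14.7%, 23.4% and 21.6% in Control 1 to 3. After AZ82 it was 29.8%, 22.9% and 22.8%. After CW069 it was 12.0%, 11.9% and 12.1%. The CW069 libraries lay below all others, and Control 1 was the nearest to them. The exact 95% binomial interval, which covers counting error only, was 13.6% to 15.9% in Control 1, and those of the 3 CW069 libraries ran from 10.8% to 13.3%. The spread between the Control libraries was wider than these intervals, so they do not bear on a difference between the groups.

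The group means were 19.9% ± 4.56 in Control, 25.2% ± 3.98 after AZ82 and 12.0% ± 0.101 after CW069 (SD, n = 3 each). The mean share after CW069 was 7.86 points below Control and 13.1 points below AZ82, and after AZ82 it was 5.25 points above Control. These differences use the values by which Hsd3b6 was picked and carry no test. The AZ82 excess was 2.95 points without AZ82 1 and 2.67 points without Control 1, and the shares of AZ82 and Control overlapped.

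**Figure D3:**
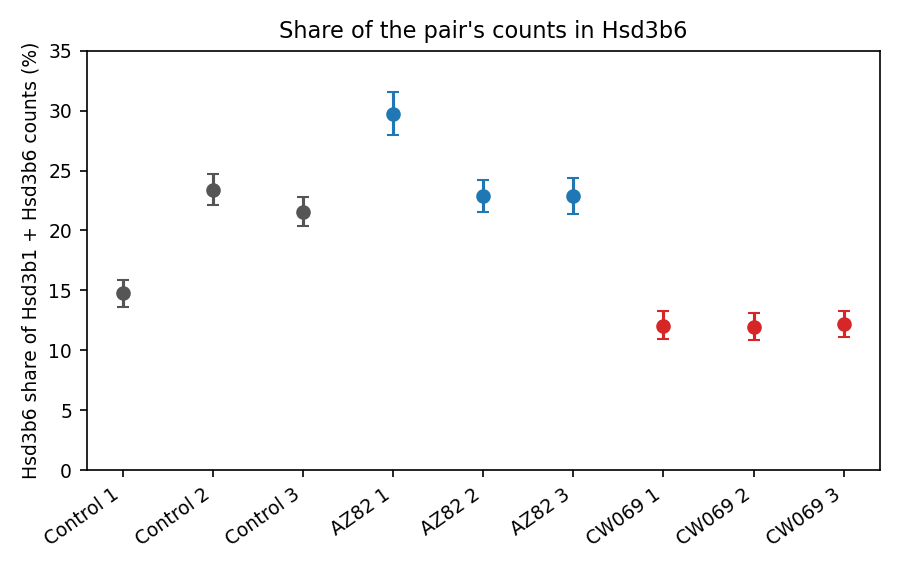
Share of the summed Hsd3b1 and Hsd3b6 counts that fell to Hsd3b6, in percent (y axis), in each of the 9 libraries (x axis); bars are exact 95% binomial intervals. The 3 CW069 libraries lie at 11.9% to 12.1%, Control 1 at 14.7% and the other 5 libraries at 21.6% to 29.8%.

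Summed over both genes, a measure that does not depend on how reads were split within the pair, the level was 265, 259 and 293 CPM in Control, 186, 269 and 218 CPM in the AZ82 libraries, and 208, 217 and 196 CPM in the CW069 libraries. All CW069 libraries lay below all Control libraries, and AZ82 overlapped with both. The group means were 273 ± 18.1, 224 ± 41.9 and 207 ± 10.4 CPM (SD, n = 3 each). The mean of the sum in CW069 libraries was 0.759 of Control and in AZ82 libraries 0.822 of Control, and Hsd3b1 supplied most of it in every library.

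Both genes were also set against 7 Leydig markers, of which Cyp17a1 makes up the largest part. The summed level of Lhcgr, Insl3, Nr5a1, Star, Cyp11a1, Cyp17a1 and Hsd17b3 was 1595 ± 72.3 CPM in Control, 1438 ± 136 CPM in the AZ82 libraries and 1277 ± 37.9 CPM in the CW069 libraries (SD, n = 3 each). Per 1000 CPM of these markers, Hsd3b6 was at 25.3, 36.2 and 40.5 CPM in Control 1 to 3, 41.1, 38.6 and 36.2 CPM in AZ82 1 to 3, and 19.7, 20.8 and 18.1 CPM in CW069 1 to 3. The CW069 libraries thus remained the lowest for Hsd3b6 on this scale. Hsd3b1 was at 137 ± 16.3, 116 ± 17.3 and 143 ± 11.4 CPM per 1000 CPM of markers, with CW069 within 1 SD of Control. AZ82 1 was the lowest library for Hsd3b1 here too, at 97.0. The values depend on which markers are summed. In the longer list of Leydig markers and hormone signalling genes, 20 were tested and 0 were called. For CW069 against Control, 14 of 20 lay below 0 and 6 above (median -0.11). Every CW069 library lay below every Control library in 5 of the 20 and above in 0, against 7.24% and 6.13% of all genes. Fabp3 was among the 5, with -0.50 ± 0.15 (SE; edgeR adjusted p = 0.539). Hpgds had -0.55 ± 0.31 with overlapping groups. Among the genes above 0 were kallikreins, a family of near-identical copies whose counts are uncertain. Klk1b21 had 0.72 ± 0.31 (SE; edgeR adjusted p = 0.675) and Klk1b27 had 0.89 ± 0.41 (adjusted p = 0.686), each with overlapping groups. Klk1b24 had 0.42 and Inha, an inhibin subunit, 0.13.

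**Figure D4:**
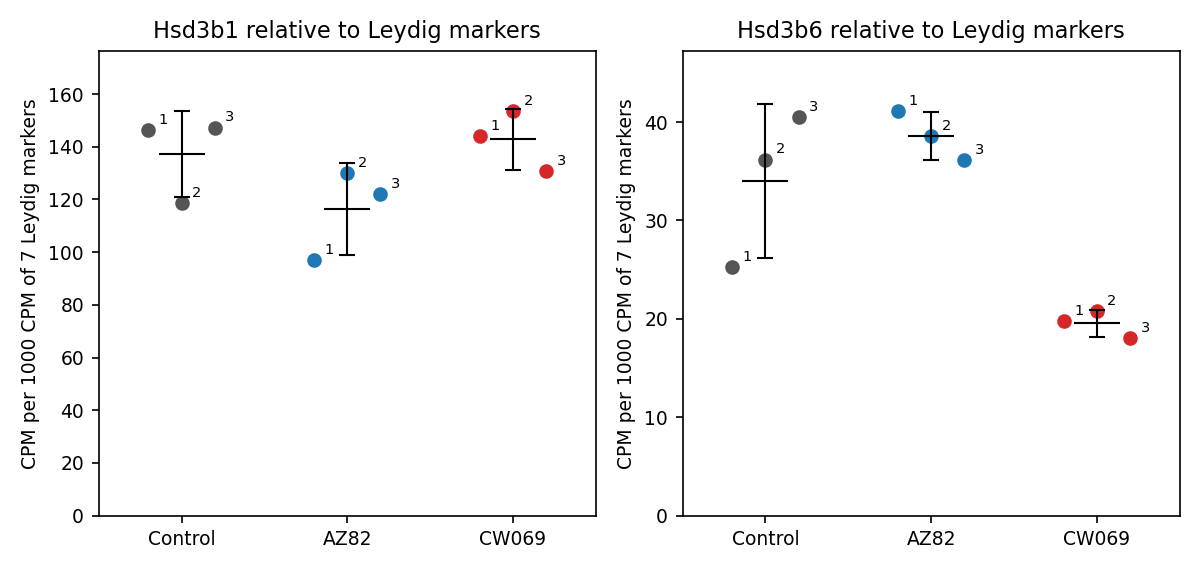
Hsd3b1 (left) and Hsd3b6 (right) in CPM per 1000 CPM of 7 summed Leydig cell markers (y axis, from 0), by group (x axis); points are libraries with their replicate number, bars the mean and SD of 3. Hsd3b6 sits at 18.1 to 20.8 after CW069 and at 25.3 or above in all other libraries, whereas the Hsd3b1 values of CW069 and Control overlap.

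The steps on either side of the pair were taken from a list of 21 genes of testosterone synthesis, of which 18 were tested. edgeR called 0 of the 18 in each comparison. The median log2 fold change was -0.14 for CW069 against Control, with 14 of 18 below 0, and -0.17 for AZ82 against Control, with 16 of 18 below 0, while the median over all genes was -0.00385 and -0.00103. Every CW069 library lay below every Control library in 7 of the 18, against 7.24% of all genes, and every AZ82 library in 4 of the 18, against 8.62% of all genes. Without Control 1 the medians were -0.08 for both compounds (-0.0797 for CW069 and -0.0793 for AZ82), and without AZ82 1 the median for AZ82 was -0.0954. No pathway gene lay wholly above Control, where 6.13% of all genes did so in the CW069 libraries and 6.65% in the AZ82 libraries. These genes were counted in the same whole-testis libraries and are not independent of each other, and the cells each was read from were not measured. For CW069 against AZ82 the median was 0.02.

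Upstream of the pair, Star brings cholesterol to the inner mitochondrial membrane. It was at 180, 218 and 197 CPM in Control, 139, 172 and 152 CPM in the AZ82 libraries, and 172, 158 and 151 CPM in the CW069 libraries, with every treated library under every Control library. Cyp11a1, which makes pregnenolone, the substrate of both enzymes, had a log2 fold change of -0.38 ± 0.08 after CW069 (SE; edgeR adjusted p = 0.396) and -0.25 ± 0.08 after AZ82 (adjusted p = 0.554). Of the electron carriers that serve Cyp11a1, Fdxr had -0.41 ± 0.13 after CW069 and -0.29 ± 0.13 after AZ82, and Fdx1 -0.01 and -0.04. None of these passed the test over all genes.

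Downstream, Cyp17a1, which carries progesterone on towards androgens, was at 819, 943 and 819 CPM in Control, 798, 955 and 752 CPM in the AZ82 libraries, and 700, 668 and 743 CPM in the CW069 libraries. It resembled Hsd3b6 in that the AZ82 libraries overlapped with Control and the CW069 libraries lay below both groups. Its difference was far smaller, at -0.29 ± 0.10 on the log2 scale against Control (SE; edgeR adjusted p = 0.573) and -0.25 ± 0.10 against AZ82 (adjusted p = 0.977). Hsd17b3, which makes testosterone from androstenedione, had -0.38 ± 0.19 after CW069 and -0.18 ± 0.19 after AZ82, with overlapping groups. Srd5a1, a 5α-reductase, had -0.00168 and -0.08, and Cyp19a1, the aromatase, 0.29 and 0.24, each with an interval that includes 0.

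**Figure D5:**
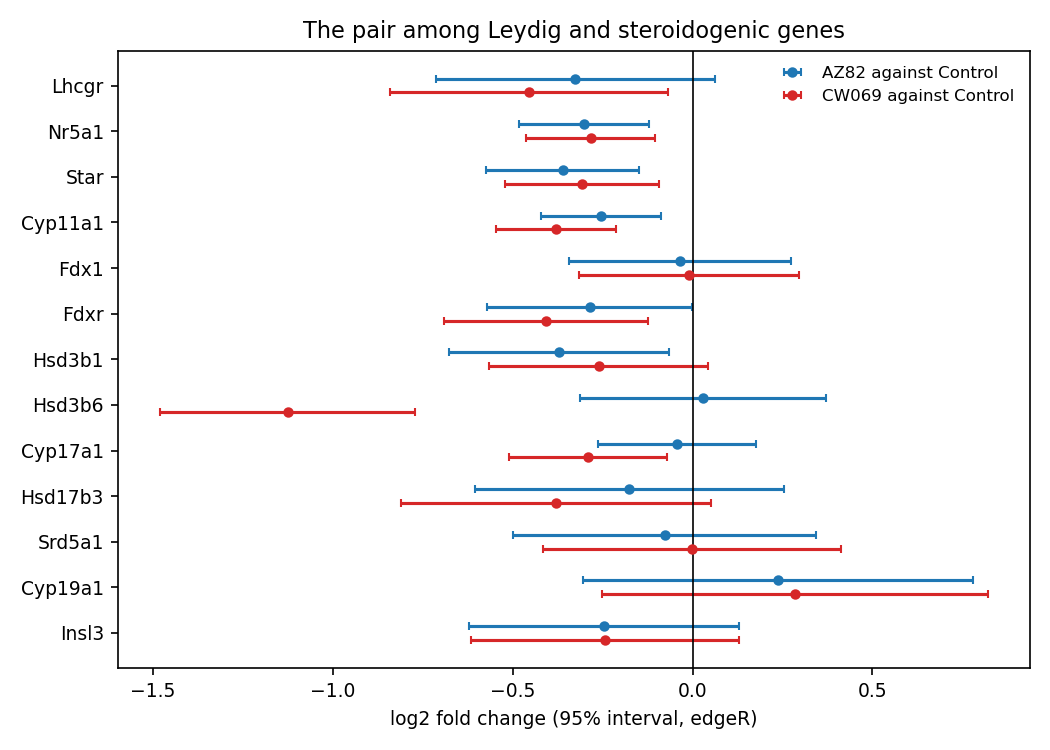
Log2 fold change against Control (x axis) with its 95% interval from edgeR for 13 genes of Leydig cells and steroid synthesis (y axis), after AZ82 (blue) and CW069 (red). Hsd3b6 after CW069 lies at -1.13, the other values after CW069 lie between -0.45 (Lhcgr) and 0.29 (Cyp19a1), and Hsd3b6 was chosen for its position. The genes shown are the steps around the pair and 3 Leydig genes, not all members of the lists. Below that range after CW069, and not drawn, were Hsd11b1 (-1.73), Ptgds (-0.93), Sult1e1 (-0.85), Hpgds (-0.55) and Fabp3 (-0.50) of the pathway and Leydig lists. Above it, and not drawn, were Klk1b21 (0.72), Klk1b24 (0.42) and Klk1b27 (0.89). Other lists also had members outside it.

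The regulators of the pathway gave no call either. Nr5a1, the nuclear receptor that drives steroidogenic genes, had a log2 fold change of -0.28 ± 0.08 after CW069 (edgeR adjusted p = 0.524) and -0.30 ± 0.08 after AZ82 (adjusted p = 0.554), nearly the same after both compounds. Lhcgr, the receptor for luteinizing hormone, had -0.45 ± 0.17 and -0.33 ± 0.17. In a list of 29 transcription factors of Hsd3b and other steroidogenic genes, 28 were tested and 0 were called. The median was -0.02 after CW069 and -0.06 after AZ82. Every CW069 library lay above every Control library in 3 of the 28 and below in 4, against 6.13% and 7.24% of all genes. For AZ82 these were 3 and 2, against 6.65% and 8.62%. Nr4a1 lay above Control after both compounds, at 0.32 ± 0.11 after CW069 and 0.39 ± 0.11 after AZ82 (SE). On few counts, Nr4a2 had 0.94 ± 0.30 after CW069 and Fos 1.07 ± 0.28 after AZ82. The AP-1 subunit gene Jund, the member with the smallest p, was at 61.1, 66.7 and 62.8 CPM in the CW069 libraries, against 43.5, 51.3 and 37.3 CPM in Control and 45.8, 43.7 and 45.0 CPM in the AZ82 libraries. Its log2 fold change was 0.53 ± 0.10 against Control (edgeR adjusted p = 0.396) and 0.50 ± 0.10 against AZ82 (adjusted p = 0.678).

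Hsd3b6 in the adrenal is known to follow the circadian clock, and the time of day of sampling is not given. Of the clock genes, 19 were tested and 0 were called, with a median of -0.02 after CW069, -0.05 after AZ82 and -0.03 between the compounds. The smallest p after CW069 was that of Npas2, a partner of BMAL1, at -0.46 ± 0.21 (edgeR adjusted p = 0.686). Cholesterol supply genes, 14 tested and 0 called, had medians of -0.06 and -0.01 after CW069 and AZ82. 

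Some genes of the lists differed between CW069 and Control by as much as Hsd3b6 or nearly so, without being called, and others lay above 0. Cyp21a1 was at 14.9, 7.32 and 6.58 CPM in Control, 5.46, 8.78 and 2.24 CPM in the AZ82 libraries, and 2.40, 3.08 and 1.87 CPM in the CW069 libraries. Its log2 fold change was -1.98 ± 0.46 for CW069 against Control (SE; edgeR adjusted p = 0.447) and -0.80 ± 0.42 for AZ82 against Control (adjusted p = 0.598), so unlike Hsd3b6 its mean was lower after both compounds. Sult1e1, an estrogen sulfotransferase, had -0.85 ± 0.26 after CW069 and -0.66 ± 0.26 after AZ82. Hsd11b1, which interconverts active and inactive glucocorticoids, had -1.73 ± 0.59 after CW069 (SE; edgeR adjusted p = 0.573) and -0.53 ± 0.51 after AZ82. It rested on few counts, 12, 11 and 13 in Control, 1, 11 and 11 in the AZ82 libraries and 4, 3 and 4 in the CW069 libraries. Above 0 after CW069 were Sts, the steroid sulfatase, with 0.18, Por with 0.05 and Srd5a3 with 0.03, beside Cyp19a1. Ptgds, a prostaglandin D synthase of Leydig cells, had the order of Hsd3b6, with group means of 42.1, 49.1 and 21.9 CPM in Control, AZ82 and CW069. Its CW069 and Control libraries overlapped, and its log2 fold change was -0.93 ± 0.38 against Control (edgeR adjusted p = 0.653) and -1.16 ± 0.38 against AZ82 (adjusted p = 0.958). Of the transcription factors, Nr5a2 had -1.24 ± 0.42 after CW069 and -0.20 ± 0.38 after AZ82. Nr0b2 had -1.38 ± 0.67 and -0.10 ± 0.59. Both rested on few counts, 78 and 81 in all libraries together. Nr4a2, with 0.94 after CW069, went the other way.

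Markers of other cell types differed between groups in part, with no gene called, and their part in the pair's values was not tested. The 8 adipocyte markers tested had a median log2 fold change of -0.60 after CW069, with 6 of 8 below 0, and 0.29 after AZ82, with 8 of 8 above 0. The summed level of the 4 defining adipocyte markers overlapped between groups, at 16.4 to 23.5 CPM in Control, 14.7 to 38.1 CPM in the AZ82 libraries and 15.5 to 20.4 CPM in the CW069 libraries. The 15 macrophage markers had medians of -0.20 after CW069 and -0.21 after AZ82, and the 15 Sertoli cell markers 0.01 and -0.10. The 12 late spermatid markers had medians of 0.08 and 0.39. The 13 peritubular and vascular markers had 0.07 and -0.01, the 4 tested of a longer list of 9 adrenal genes (Cyp21a1, Akr1b7, Mrap and Dab2) -0.64 and -0.59, and the 3 fetal Leydig markers tested 0.22 and -0.08. The longer Leydig list had -0.11 and -0.18. edgeR called 0 genes in each of these lists.

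The other Hsd3b genes of the cluster added little to the signal. Hsd3b2, Hsd3b3, Hsd3b4 and Hsd3b5, the liver, kidney and related forms, had 5, 2, 3 and 2 counts in all 9 libraries together, and none was tested. Hsd3b1 and Hsd3b6 had 25350 and 5937. The family list also held Nsdhl, with 4039 counts, and Sdr42e1, with 692, both tested and neither called. Nsdhl was at 31.7 ± 2.10, 30.3 ± 2.78 and 28.7 ± 2.34 CPM in Control, AZ82 and CW069 (SD). Sdr42e1 was at 4.95, 5.33 and 5.31 CPM. Hsd3b7, an enzyme of bile acid synthesis on another chromosome, was at 6.11 ± 0.806 CPM in Control, 5.09 ± 0.488 CPM in the AZ82 libraries and 4.78 ± 0.498 CPM in the CW069 libraries (SD, n = 3 each; log2 fold change after CW069 -0.36 ± 0.15, SE; edgeR adjusted p = 0.666). In the RefSeq gene order the cluster ran from Hsd3b4 to Hsd3b1, with Hsd3b6 near the Hsd3b1 end. The nearest counted genes outside it were Hao2 and Wars2 on the Hsd3b1 side. Hao2, a hydroxyacid oxidase, had a log2 fold change of -0.43 ± 0.16 after AZ82 (SE; edgeR adjusted p = 0.554), beside -0.37 for Hsd3b1, and -0.15 ± 0.15 after CW069. Wars2 had -0.05 ± 0.13 and -0.18 ± 0.13. On the far side, beyond Hsd3b4, lay Gm4450, with 45 counts in all and not tested. Some 50-base stretches of Hsd3b6 also occur in Gm4450. Next came Zfp697, with -0.15 ± 0.22 after AZ82 and -0.02 ± 0.22 after CW069.

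The genes whose pattern over the 9 libraries was most like each member were ranked by the root mean square difference of log2 CPM, each gene centred on its own mean, among 11321 named genes whose mean was 5 CPM or more. For Hsd3b1 the nearest was Insl3, a peptide hormone of Leydig cells, at 0.0759, followed by Dmd, Glb1l2, Abca6 and Tmtc3 (0.0828 to 0.101). Insl3 was at 8.15, 7.25 and 7.52 CPM in Control, 4.88, 8.07 and 6.35 CPM in the AZ82 libraries, and 6.78, 6.64 and 5.96 CPM in the CW069 libraries, so it shared with Hsd3b1 the low AZ82 1 and the high AZ82 2. Of the 623 exon bases of Insl3, 64.8% also lie in exons of Jak3 on the same strand, so its own counts are uncertain.

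For Hsd3b6 the nearest genes were less near, from 0.273 for Bfsp1, through Ndufaf5, Folr1 and Snx15, to 0.367 for Atg2a. The distance also depends on how much the member itself varies. The root mean square about its own mean was 0.557 for Hsd3b6 and 0.236 for Hsd3b1, so the 2 sets of distances are not on 1 scale. Bfsp1 was at 8.77, 8.34 and 5.08 CPM on average in Control, AZ82 and CW069. Among pathway and Leydig genes the nearest to Hsd3b6 was Cyp17a1, at 0.437 and rank 63. Hsd3b1 itself stood at 0.581 and rank 6662, farther than a gene with no variation at all, which would lie at 0.557. The measure is a description over 9 libraries that share the groups by which Hsd3b6 was picked.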

How the data were processed

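The deposited table and 9 single-library files hold whole-number counts of reads per gene with no normalization by the authors, and each single-library file equalled its column (19991 genes). Trimmomatic, HISAT2, HTSeq and GRCm39 are named in the submitters' processing notes, without settings; the strand setting and the handling of reads that fit several genes are not given in the sources used here. Low genes were removed by filterByExpr within groups and TMM factors were computed. edgeR 4.0.16 under R 4.3.3 then fitted all 9 libraries together, a mean for each group, with 6 residual degrees of freedom. Its quasi-likelihood F test is two-sided, with Benjamini-Hochberg adjustment over all 15834 genes and a threshold of 0.05. The typical 95% interval of a log2 fold change reached 0.28 to either side. The pipeline was tested on simulated data. Alternatives used limma 3.58.1, DESeq2 1.42.0, other scalings, filters and sample sets.

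The members and gene lists were chosen with earlier results of these data known. Named genes were the pair, the family, the steps before and after the pair with Nr5a1, Lhcgr and Insl3, up to 3 members of each other list and comparison with the smallest p, the 2 nearest counted genes on either side of the cluster and the 5 most alike patterns. Not every member that met this rule in the other lists is named. Sult1e1, Hsd11b1, Sts, Por, Srd5a3, Klk1b24, Klk1b27, Hpgds, Nr5a2 and Nr0b2 fall outside the rule and were chosen after their values were seen. Patterns used log2(CPM + 0.5). Symbols were matched to RefSeq (19819 found) and GENCODE M21, both on GRCm38. Protein sequences were not used here.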

Additional observations from a re-analysis of the deposited data

How the results depend on the processing

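Of 225 values recomputed under other settings, 210 stayed the same by the measure used. For Hsd3b1, the tested member, this meant that direction and side of the threshold were kept. For the number of genes called it meant an unchanged number. For the others it meant a shift under 1 SD of the replicates, whatever the sign. The 14 values that moved were all numbers of genes called, and 1 value of Hsd3b1 reversed. The log2 fold change of Hsd3b6 was below 0 in 17 of 17 alternatives for CW069 against Control (-1.31 to -1.004) and for CW069 against AZ82 (-1.23 to -1.08). For AZ82 against Control it ran from -0.16 to 0.15, with 3 of 17 below 0. Hsd3b1 was below 0 in 17 of 17 alternatives in both comparisons with Control, with adjusted p from 0.359 to 0.991. Against AZ82 its value after CW069 ran from -0.044 (without AZ82 1) to 0.29 (without AZ82 2), the only change of sign among the Hsd3b1 values. The pathway median for CW069 against AZ82, 0.02 in the main fit, was below 0 in 3 of 17 alternatives.

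The number of genes called, 0 in each comparison, was 6, 28 and 13 with DESeq2 for AZ82 against Control, CW069 against Control and CW069 against AZ82. With library size only it was 1, 1 and 0, with limma-voom 1, 0 and 0, and with only the compared groups fitted 0, 0 and 8. With a library left out it ran from 0 to 4, 0 to 7 and 0 to 4: for AZ82 against Control 4 without Control 2, for CW069 against Control 1, 7 and 5 without Control 1, Control 2 and CW069 3, and for CW069 against AZ82 1, 4 and 4 without Control 1, AZ82 2 and CW069 3. The cause was not tested. The replicate block gave 0 calls in each comparison, log2 fold changes of Hsd3b6 of 0.04, -1.11 and -1.15 and of Hsd3b1 of -0.39, -0.27 and 0.12. Over all genes, libraries of the same number deviated together no more than others did (r from -0.17 to 0.05 over 9 pairs, against -0.11 to 0.19 over 18 pairs of different numbers). Whether libraries of the same number share a batch or day is not given and was not tested. No scaling moved the median of all genes by more than 0.0807 on the log2 scale. Depth limits Hsd3b2, Hsd3b3, Hsd3b4 and Hsd3b5, at 5 counts or fewer.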
